A study of Sus scrofa with 12 samples.

Results

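The genes described here encode enzymes of glycolysis and glycogen metabolism in pig longissimus muscle: GYS1, PYGM, PFKM, ALDOA, TPI1, PGK1, PGAM2, ENO3, PKM and LDHA. They are 10 of 28210 genes placed on the chromosomes by the RefSeq annotation of the pig genome (Sscrofa11.1). They were chosen by name for their function, with earlier results of these data known. A chromatin loop was assigned to a gene when an anchor lay within 1 kb of either gene end, and a chromatin-associated RNA (caRNA) was assigned to it when the RNA carried its name or identifier or lay inside it. Muscle from Large White (LW) pigs, a lean commercial breed, was compared with muscle from Meishan (MS) pigs, a local Chinese breed. All piglets were 2 weeks old and male, by the study's methods, and no agent or allele was applied to either breed. Each breed gave 2 libraries of H3K27ac BL-HiChIP, which reports chromatin loops at DNA carrying an active histone mark, and 2 libraries of GRID-seq, which ligates chromatin-bound RNA to the DNA beside it. The study's methods name 2 male piglets, without saying whether in all or per breed, and duplicate libraries, without saying which animal gave which, so the p-values measure only the spread between these libraries, which may be technical.

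Glycolysis splits glucose into pyruvate and yields ATP without oxygen, and fast-twitch muscle fibres rely on it for short, strong contractions. Glycogen is the stored form of glucose, built by glycogen synthase (GYS1) and broken down by glycogen phosphorylase (PYGM). Phosphofructokinase (PFKM) makes the committed step of glycolysis, aldolase (ALDOA) and triose phosphate isomerase (TPI1) deliver the 3-carbon sugars, and phosphoglycerate kinase (PGK1), phosphoglycerate mutase (PGAM2), enolase (ENO3) and pyruvate kinase (PKM) carry them to pyruvate. Lactate dehydrogenase (LDHA) then turns pyruvate into lactate. ENO3, PGAM2, PFKM, PYGM and GYS1 are the isoforms typical of muscle.

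On Sscrofa11.1 the genes lie at chromosome 6, 54234600 to 54250211 (GYS1), chromosome 2, 7409330 to 7421256 (PYGM) and 40814163 to 40827284 (LDHA), chromosome 5, 78475473 to 78525052 (PFKM) and 63839473 to 63842853 (TPI1), chromosome 3, 18246036 to 18260167 (ALDOA), chromosome X, 62187472 to 62210321 (PGK1), chromosome 18, 48693832 to 48712787 (PGAM2), chromosome 12, 51954614 to 51959991 (ENO3), and chromosome 7, 60971807 to 61032780 (PKM). The RefSeq spans run from 3.38 kb (TPI1) to 61.0 kb (PKM). All values below refer to the whole gene, its ends or the listed RNA interval, without a division into exons and introns.

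The loop lists held 57028 and 43282 loops in LW and 45061 and 33353 loops in MS. The GRID-seq lists held 571 and 681 RNAs with 8181721 and 9943666 RNA reads in LW, and 519 and 649 RNAs with 7172517 and 9381797 reads in MS. The smallest listed RNA had between 432 and 455 reads. Of 12 markers of skeletal muscle fibres, 8 were listed and took from 11.0% to 14.2% of the reads, while the fast myosin genes MYH1, MYH2 and MYH4 and the calcium channel gene RYR1 were not listed by those names. Of 4 fibroblast markers, COL1A1 and COL3A1 were listed in at least 1 library and together took at most 0.111% of the reads. PDGFRA and DCN were not listed. No marker of satellite cells, adipocytes, endothelium, macrophages, red blood cells or nerve was listed. In bulk muscle, fewer cells of a type and less RNA per cell cannot be told apart.

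RNAs of 8 of the 10 genes were listed. The RNAs of GYS1, PYGM, PFKM, TPI1, ENO3, PKM and LDHA were listed in all 4 libraries, and PGAM2 RNA in 3. ALDOA RNA was not listed in any library. PGK1 RNA was not listed either, and PGK1 lies on chromosome X, from which no RNA was listed in any library although between 4594 and 9252 pairs of RNA and DNA bin did fall on X. An RNA missing from a list was not necessarily rare. Of 101 RNAs listed in exactly 3 libraries, 79 had over 1000 reads in each of those 3, so a missing entry is reported only as not listed.

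As RPKM, that is, listed reads scaled to the library's listed total and divided by the length of the listed interval in kb, ENO3 RNA had the highest level of the 8, at 87.4 and 76.3 in LW and 109 and 97.4 in MS. It ranked between 37 and 51 from the top among all RNAs of a library. LDHA RNA followed in LW at 69.2 and 61.9, and had 43.9 and 40.1 in MS. The levels of PYGM (47.2 and 41.4), TPI1 (46.0 and 42.1) and PKM (42.5 and 39.4) overlapped among the LW libraries. In MS, PYGM (46.9 and 42.1) overlapped with LDHA, whereas TPI1 had 38.6 and 35.4 and PKM only 21.0 and 18.8. PFKM RNA had 22.1 and 20.6 in LW and 18.6 and 16.5 in MS, GYS1 RNA 17.6 and 15.9 in LW and 12.9 and 12.0 in MS, and PGAM2 RNA, the lowest, 10.2 and 8.80 in LW and 9.70 in the MS library that listed it. In both breeds ENO3 stood above the others, and GYS1 and PGAM2 stood below them, without overlap between libraries. LDHA was second and apart from its neighbours in LW, whereas in MS it shared its range with PYGM.

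Chromatin-associated reads of the 7 RNAs listed in all 4 libraries were compared between breeds on TMM-scaled CPM, that is, counts scaled by library total and by a factor under which most RNAs match between libraries. Reads were higher in LW for 5 of the 7 (PKM, LDHA, GYS1, PFKM and TPI1), higher in MS for ENO3, and not called for PYGM. Across all 307 RNAs tested, 44.3% were called higher in LW, 42.7% higher in MS and 87.0% in either direction (edgeR quasi-likelihood test, Benjamini-Hochberg adjusted p under 0.05), so the count of called enzymes is near the background. Scaling by library totals alone moved the background split from 136 higher in LW and 131 in MS to 157 and 100, and shifted the median log2 fold change over all RNAs from 0.00 to 0.12.

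PKM RNA, from the enzyme that makes pyruvate, had 21530 and 24275 reads in LW and 9321 and 10913 in MS. This corresponded to 3121 and 3190 scaled CPM against 1572 and 1549. Both LW libraries were well above both MS libraries, with a log2 fold change of 1.02 ± 0.017 (SE) and an adjusted p of 2.46e-06 by edgeR. It was the largest difference among the 7 RNAs.

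LDHA RNA had 8075 and 8773 reads in LW and 4492 and 5361 in MS, or 1170 and 1153 scaled CPM against 758 and 761. Its log2 fold change was 0.61 ± 0.021 (SE; edgeR adjusted p = 1.78e-05). GYS1 RNA had 2478 and 2728 reads in LW and 1596 and 1929 in MS, a log2 fold change of 0.40 ± 0.016 (SE; edgeR adjusted p = 2.76e-05). This SE lies below the counting error of the GYS1 reads and understates the uncertainty. The breeds did not overlap for either gene, and the LW libraries were the higher ones.

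PFKM and TPI1 RNAs showed smaller differences in the same direction. PFKM RNA had 9302 and 10553 reads in LW and 6851 and 7940 in MS, with a log2 fold change of 0.26 ± 0.024 (SE; edgeR adjusted p = 0.000563). TPI1 RNA had 2117 and 2355 reads in LW and 1560 and 1871 in MS, with a log2 fold change of 0.22 ± 0.016 (SE; edgeR adjusted p = 0.000228). The TPI1 SE also lies below the counting error of its reads. When all 1090 RNAs listed in any library were entered, with 0 where an RNA was not listed, the edgeR adjusted p became 0.0873 for GYS1, 0.0647 for PFKM and 0.317 for TPI1, and these 3 calls were lost while the log2 fold changes were 0.37, 0.23 and 0.19.

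ENO3 RNA went the other way. It had 6153 and 6527 reads in LW and 6736 and 7870 in MS, which gave 892 and 858 scaled CPM in LW and 1136 and 1117 in MS (log2 fold change -0.36 ± 0.028 SE, edgeR adjusted p = 0.000278). PYGM RNA had 11659 and 12419 reads in LW and 10154 and 11931 in MS. Its log2 fold change was -0.04 ± 0.022 (SE; edgeR adjusted p = 0.191), which became 0.08 with library totals alone. Without LW replicate 1 the PYGM value was -0.06 with an edgeR adjusted p of 0.0456. PGAM2 RNA had 1668 and 1748 reads in LW and 1390 in MS replicate 1 and was not listed in MS replicate 2, so it was not tested.

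**Figure D1:**
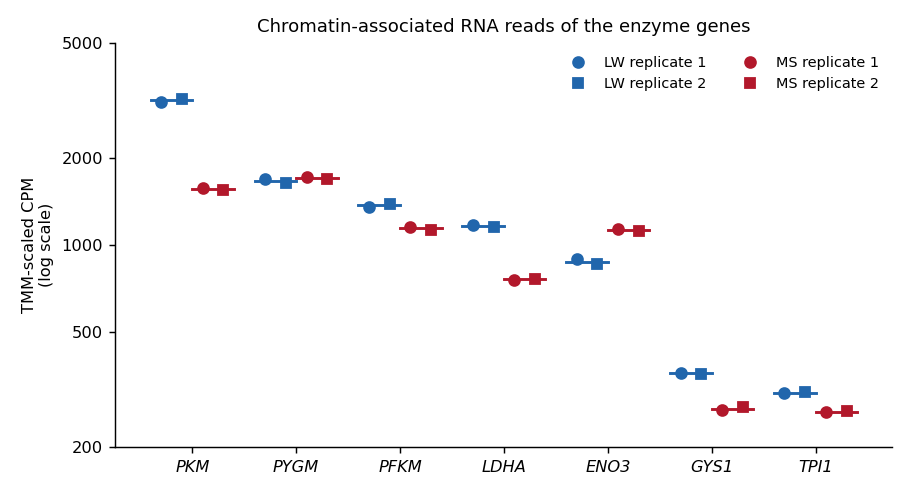
TMM-scaled CPM of chromatin-associated RNA (log axis) of the 7 enzyme RNAs listed in all 4 libraries, with a point per library and a line at each breed's mean. PKM shows the widest gap, LW libraries at 3121 and 3190 against 1572 and 1549 in MS, and ENO3 is the RNA of the 7 that was called higher in MS.

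For the 307 RNAs listed in all 4 libraries, replicates of a breed lay far closer together than the breeds did. Taking the median of absolute log2 differences over these RNAs, LW replicates stood 0.0276 apart, MS replicates 0.0203 and the breeds 0.352. Summed over every RNA listed in both libraries of a breed, 438 in LW and 439 in MS, replicate differences exceeded counting error. The chi-square per degree of freedom there reached 333 for LW and 63.5 for MS. RNAs with many reads can dominate this sum, so it does not describe the typical RNA. For a single gene, 2 libraries against 2 cannot reach a p under 0.333 in an exact two-sided permutation test.

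Some intervals hold parts of other genes, and whether the reads were counted by strand is not given in the sources used here. The PYGM interval is 18.3 kb longer than the gene and shares 13.4 kb with the splicing factor gene SF1. The PGAM2 interval shares 14.0 kb with the uncharacterised locus LOC106506850, and those of TPI1 and SPSB2 share 1.57 kb, PKM and GRAMD2A 1.02 kb, PFKM and ASB8 0.89 kb, and ENO3 and PFN1 0.581 kb. Reads of such stretches cannot be assigned to a gene with certainty. The LDHA interval overlapped no other gene.

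The next question was where on the chromatin these RNAs were found. The deposited lists give each RNA a value in 1-kb DNA bins, read here as a background-corrected signal. Whether it was scaled by the reads of that RNA is not given in the sources used here, so reads and signal are separate measures and their sizes are not compared. Most of the signal was local, within 10 kb of the RNA's own interval. The local share ranged from 76.1% to 100% over the 31 combinations of enzyme RNA and library, and the median local share of all listed RNAs was 90.0% and 83.1% in LW against 92.7% and 86.8% in MS. ENO3 RNA was at least 99.6% local in every library. GYS1 RNA was the least local of the 8 in every library, with 82.9% and 76.1% in LW and 91.9% and 81.2% in MS.

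PKM RNA was 86.5% and 78.5% local in LW and 98.7% and 95.4% local in MS. LDHA RNA was 99.1% and 91.9% local in LW and 100% and 99.8% in MS, and PYGM RNA 98.7% in both LW libraries and 99.9% and 99.8% in MS. For these 3 RNAs the LW libraries lay below the MS libraries without overlap. That pattern held for 43.3% of the 307 RNAs, and the breeds did not overlap in either direction for 53.4%, so 3 of 7 is near the background. PKM and LDHA also had more reads in LW, and the part of read number in the share was not tested.

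Summed over the local bins, the signal of ENO3 RNA was 85800 and 66827 in LW against 36528 and 27842 in MS, a log2 ratio of 1.25, higher than 96.4% of all 307 RNAs. The ENO3 reads were higher in MS. TPI1 RNA had 110225 and 84982 in LW and 56516 and 46995 in MS (log2 ratio 0.92), PYGM RNA 72528 and 60778 against 42880 and 31599 (0.84), LDHA RNA 69632 and 62942 against 42462 and 38735 (0.71), and GYS1 RNA 66161 and 53400 against 46161 and 45786 (0.38). For PFKM RNA the libraries of the breeds overlapped, with 72387 and 60977 against 61837 and 54467.

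PKM RNA alone of the 7 had the lower local signal in LW, at 47604 and 48622 against 62516 and 57720 in MS (log2 ratio -0.32). The breeds did not overlap in local signal for 6 of the 7 genes, against 64.5% of all RNAs, and 5 of those were higher in LW, against 37.1% of all RNAs. The median log2 ratio over all RNAs was 0.03. These are descriptions without a test.

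The signal over a gene was a smooth hump whose strongest bin fell at a fixed place for several of the RNAs. It lay at 66.5% of the interval, counted from the RNA's start, for ENO3 in all 4 libraries, at 85.4% for PFKM in all 4 and at 93.2% for PGAM2 in all 3. For PKM it lay at 93.1% in both LW libraries and 88.2% in both MS libraries, and for PYGM between 84.2% and 87.5%. For LDHA it lay at 57.6% in MS replicate 1 and 71.6% in the other libraries. GYS1 (33.5% to 50.9%) and TPI1 (11.3% to 46.8%) had their strongest bin in or near the first part of the interval. For TPI1 that range is 0.637 to 2.64 kb from the start of a 5.63-kb interval. No stretch of these RNAs away from their loci held fewer than 22 bins of 1 kb, so neighbouring bins may not be independent. In intervals shorter than such a stretch, peak places and shares of the signal, here and below, are therefore rough. Over all RNAs with an interval of at least 5 kb, the strongest bin lay in the last part, past the interval's middle, for 65.8% and 66.5% of RNAs in LW and 57.2% and 55.5% of RNAs in MS.

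The shape of the hump also varied by breed. PKM RNA had 10.9% and 14.2% of its signal over the interval in the 5′ part before the middle in LW, and 19.7% and 19.1% in MS. PYGM RNA had 10.3% and 12.3% in LW and 18.7% and 21.7% in MS, where the 5′ part of the interval lies over SF1. In both genes the MS libraries were the higher ones. The breeds did not overlap in this share for 6 of the 7 genes and for 63.7% of the 273 RNAs compared. The LW minus MS difference ran from -8.50 to 1.92 percentage points between the lowest and the highest decile of these RNAs. The PKM difference of -6.81 lay inside that range, while those of PYGM (-8.92), TPI1 (2.08) and PFKM (1.93) lay just outside it.

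**Figure D2:**
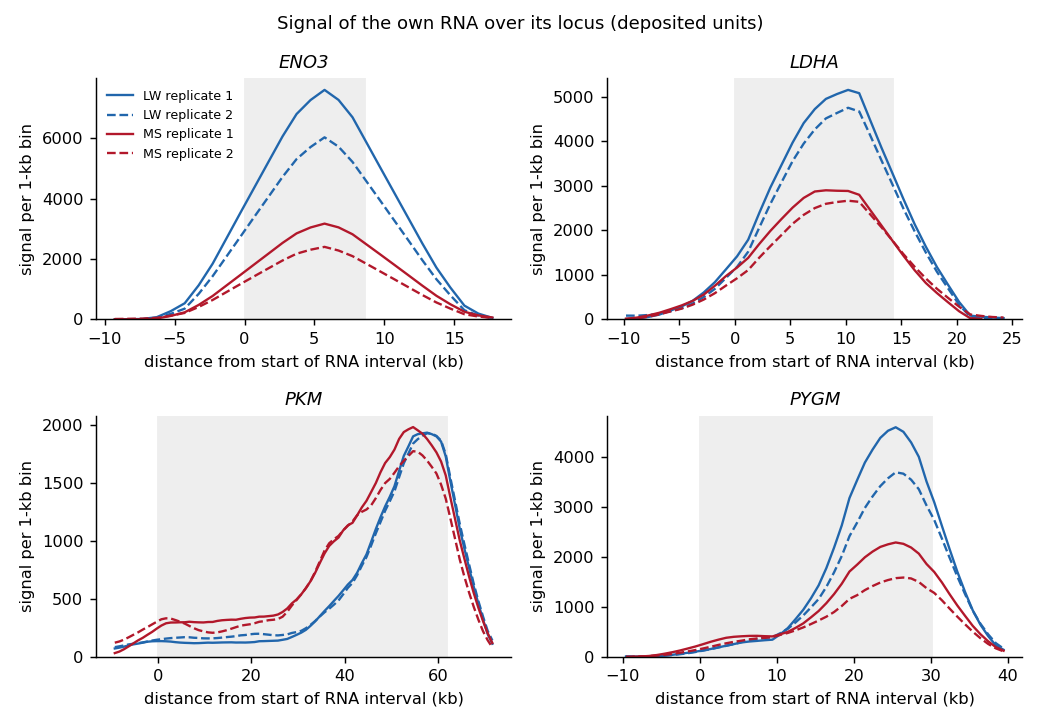
Signal of the own RNA per 1-kb bin in deposited units against the distance from the start of its interval in kb, for ENO3, LDHA, PKM and PYGM, with a line per library (solid for replicate 1, dashed for replicate 2) and the interval shaded. The LW curves peak above the MS curves for ENO3, LDHA and PYGM, whereas for PKM the peaks are of similar height and the MS curves are higher over the 5′ part.

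Away from their loci, the enzyme RNAs formed 30 stretches of neighbouring bins, 8 and 14 in LW and 4 in each MS library. They held 22 to 57 bins each (median 28) and at most 5.00% of the RNA's signal, and 4 of them were on another chromosome. No enzyme RNA was listed within 5 kb of another of the 10 genes in any library.

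Several distant stretches of the same RNA fell on the same neighbourhood in more than 1 library. PKM RNA had a stretch over ARIH1, a ubiquitin ligase gene, in LW replicate 1, LW replicate 2 and MS replicate 2, at 136, 248 and 128 kb from its interval. GYS1 RNA had a stretch over TRPM4, a cation channel gene, in LW replicate 1, LW replicate 2 and MS replicate 2, between 72.7 and 91.7 kb away. PFKM RNA had a stretch between 935 and 1315 kb from its interval in LW replicate 1, MS replicate 1 and MS replicate 2. TPI1 RNA had its only distant stretch in LW replicate 2, at 19.5 kb and centred on ENO2, the enolase gene expressed mainly in neurons, with 2.56% of its signal. These stretches were picked out after their values were seen.

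Chromatin loops were then examined at both ends of each gene. The 10 genes had 55 and 51 loops in LW and 52 and 48 in MS, and 123 different gene and loop pairs in all, of which 87 were in LW and 80 in MS. Only 8 of the 123 (6.50%) were called in all 4 libraries and 73 (59.3%) in a single library. Among the 59861 loops at any gene end, 4.59% were called in all 4 libraries and 65.9% in a single library. The median span was 50 kb for the enzyme genes and 60 kb for all gene ends. For recurrent loops, those called in all 4 libraries, it was 15 kb over the 8 of the enzyme genes and 45 kb over all gene ends.

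The 8 recurrent loops belonged to 5 genes. PYGM had 3 of them. One joined its start to an anchor 15 kb away that holds an end of SF1 and overlaps the listed PYGM RNA interval. It had −log10 FDR of 24.0 and 41.6 in LW against 18.7 and 32.9 in MS. Another, with 15.6 and 46.7 in LW and 16.8 and 13.9 in MS, joined the start and the end of the gene. The remaining PYGM loop, from the gene's end to the same SF1 anchor, had lower values, between 4.96 and 7.60.

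PKM had 2 recurrent loops. A 60-kb loop joined the start and the end of the gene, with 13.8 and 7.20 in LW against 5.21 and 3.82 in MS. A 25-kb loop joined the end to an anchor inside the gene, with 12.3 and 26.9 in LW and 10.5 and 19.3 in MS. TPI1 was joined over 15 kb to an anchor with the ends of USP5 and CDCA3 (8.16, 16.9, 2.61 and 10.3 in the order LW replicates 1 and 2, MS replicates 1 and 2). ENO3 was joined over 10 kb to an anchor with the ends of SLC25A11, RNF167 and GP1BA (2.42, 12.2, 4.75 and 7.49). PGAM2 had a 5-kb loop from its end to the neighbouring anchor, which holds no gene end (3.97, 7.10, 2.58 and 4.23).

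Other loops reached genes of the same pathway or of muscle, in 1 to 3 libraries each, and were picked out after the values were seen. GYS1 was looped to KCNA7, a potassium channel gene, in 3 libraries, from its start over 35 kb (21.9 and 37.1 in LW and 14.8 in MS replicate 1) and from its other end over 50 kb (9.06, 10.8 and 18.1), and in MS replicate 2 neither loop was called. TPI1 was looped over 290 kb (3.18) to an anchor with ends of LOC110260753, IFFO1 and GAPDH, the glyceraldehyde phosphate dehydrogenase gene. Over 45 kb (3.81) it was looped to an anchor with ends of LOC110260590, ATN1 and ENO2. Both loops were called only in MS replicate 2, and GAPDH and ENO2 each lay farthest from the anchor's middle among the genes named. ALDOA was looped over 285 kb to ATP2A1, the calcium pump gene of fast muscle, in LW replicate 1 (2.33).

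**Figure D3:**
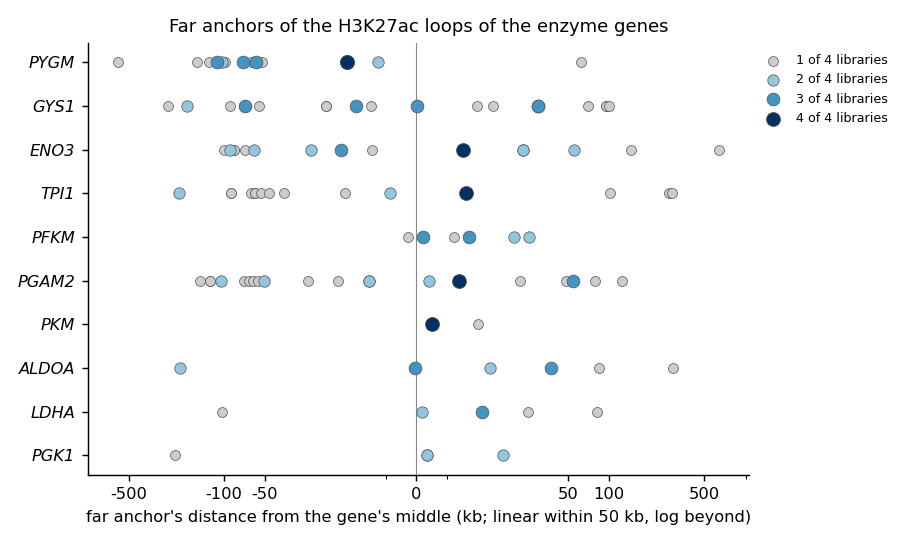
Distance of each far anchor from the middle of the gene (kb, linear within 50 kb and logarithmic beyond) for the loops of the 10 genes, leaving out those with both anchors at the gene, with a point per loop shaded and sized by the number of libraries that called it. Loops called in all 4 libraries sit within 50 kb of the gene, and of 21 loops longer than 100 kb 17 were called in a single library.

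The loop score of a gene, the sum of −log10 FDR over its loops, was compared between breeds after quantile normalization. The study scored active promoters and tested them with DESeq2, whereas here both ends of every gene were scored and limma was the main test. Of the 10 genes, 2 passed the study's thresholds (log2 fold change above 1.5 in size and unadjusted p under 0.05), LDHA with the higher score in LW and PGK1 with the higher score in MS. Among the 15431 genes with a loop, 2.83% passed as higher in LW, 2.50% as higher in MS and 5.33% in either direction. No gene had an adjusted p under 0.05 by limma, with 822 at an unadjusted p under 0.05, or by DESeq2 on the rounded score, with 275. Without normalization the background split moved from 436 higher in LW and 386 in MS to 862 and 259, with a median log2 fold change over all genes of 0.38 in place of 0.02, and after scaling to equal totals it was 718 and 301.

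LDHA had loop scores of 21.4 and 19.7 in LW against 2.56 and 4.49 in MS. Both LW libraries exceeded both MS libraries, with a log2 fold change of 1.97 ± 0.82 (SE), an unadjusted p of 0.0484 and an adjusted p of 0.931 by limma. Most of the score came from a 15-kb loop between the start of LDHA and an anchor without a gene end, with −log10 FDR of 13.6 and 13.7 in LW, 2.56 in MS replicate 1 and no call in MS replicate 2. The LDHA call was lost in 10 of 15 alternatives, including without LW replicate 1 (2.01), without LW replicate 2 (1.93) and without MS replicate 1 (1.37), and with a 5-kb window the log2 fold change was 0.94.

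PGK1 had loop scores of 2.32 and 4.37 in LW against 13.6 and 19.4 in MS. The MS libraries were the higher ones, with a log2 fold change of -2.66 ± 0.92 (SE), an unadjusted p of 0.0240 and an adjusted p of 0.819 by limma. A pair of short loops inside the gene, of 15 kb (7.71 and 13.9) and 5 kb (3.16 and 5.47), were called in both MS libraries and in neither LW library. This call was lost in 9 of 15 alternatives, among them without LW replicate 1 (-1.74), without MS replicate 1 (-2.96) and without MS replicate 2 (-2.37), and was -0.92 with a 5-kb window.

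The other 8 genes did not pass. PFKM had 44.4 and 49.8 in LW and 23.5 and 17 in MS (log2 fold change 0.90 ± 0.76 SE, limma adjusted p = 0.992). Its 5-kb loop at the end of the gene had 24.3 and 28.3 in LW and 2.82 in MS replicate 2. In MS replicate 1 the 5-kb loop at that end was shifted by 1 anchor and had 11.0. PYGM had the highest mean score of the 10, with 64.0 and 139 in LW and 48.5 and 105 in MS, followed by GYS1 with 66.7 and 108 in LW and 56.8 and 57.1 in MS. By mean score they stood above 97.3% and 96.1% of the scored genes. ENO3 had 80.9 and 60.8 in LW and 55.8 and 34.5 in MS, and PKM 32.1 and 37.8 in LW against 15.7 and 27.3 in MS. For TPI1, PGAM2 and ALDOA the breeds overlapped, with scores between 6.33 and 51.9.

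On the normalized scores the breeds did not overlap for 4 of the 10 genes (PGK1, LDHA, PFKM and GYS1), against 31.1% of all genes. The median log2 fold change of the 10 was 0.25, beside 0.02 over all genes. The lowest mean score among them, that of PGK1, was above 59.9% of the scored genes.

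**Figure D4:**
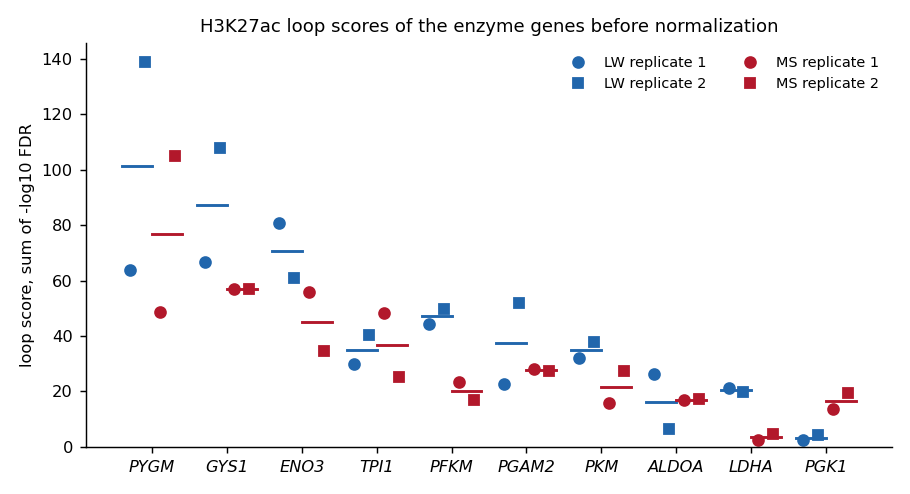
Loop score before normalization (sum of −log10 FDR) of the 10 enzyme genes, with a point per library and a line at each breed's mean. LDHA is higher in both LW libraries (21.4 and 19.7 against 2.56 and 4.49) and PGK1 in both MS libraries (13.6 and 19.4 against 2.32 and 4.37), while PYGM has the highest mean score and replicates that differ more than the breeds.

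For the 8 genes with a listed RNA, 104 loops had a far anchor away from the gene end. The gene's own RNA was listed on 54 of these anchors in at least 1 library, which was not always a library that called the loop. Several of the 54 lie inside the RNA's own listed interval, as in PKM and PFKM, where its presence was given beforehand. The share over all genes was not computed. Loops to anchors with the own RNA had a median span of 35 kb, against 77.5 kb for those without it. None with it was longer than 105 kb. Because the signal of these RNAs was mostly local, shorter spans with the own RNA were also given beforehand, and nothing is concluded from them. For these 8 genes 76 of 111 loops had an anchor at the start of the gene, taken from the strand of the RNA, and 55 at the other end, 20 of them at both.

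All RNAs found on the DNA within 5 kb of the gene ends were then summed. None of the 10 genes passed the study's thresholds (log2 fold change above 2 in size and unadjusted p under 0.05), while 7.46% of the 23749 genes with signal passed as higher in LW, 8.22% as higher in MS and 15.7% in either direction. No gene had an adjusted p under 0.05 by limma, with 3723 at an unadjusted p under 0.05. The breeds did not overlap for 5 of the 10 genes (ENO3, LDHA, TPI1, PYGM and GYS1), against 35.6% of all genes.

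For 6 genes the end signal was almost entirely the gene's own RNA. In PKM, LDHA, TPI1, PFKM, PYGM and GYS1 the own RNA supplied from 93.5% to 100% of it in every library. The PKM ends had 19540 and 19758 in LW and 19555 and 18190 in MS, with a log2 fold change of 0.01 ± 0.85 (SE; limma adjusted p = 0.998). At the ENO3 ends the own RNA supplied 64.8% and 65.1% in LW and 99.7% and 55.3% in MS replicates 1 and 2. The rest came mainly from PFN1, the profilin gene beside it, whose RNA was on the ENO3 ends in LW (41738 and 29783) and MS replicate 2 (17551), and which was not listed in MS replicate 1. ENO3 had 123605 and 96215 in LW against 33960 and 46315 in MS, a log2 fold change of 1.41 ± 0.88 (SE; limma adjusted p = 0.654).

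Where the own RNA was not listed, the end signal was small. PGAM2 had 93565 and 68686 in LW, 75895 in MS replicate 1 and 253 in MS replicate 2, whose list lacks PGAM2 RNA, so its log2 fold change of 4.19 ± 3.25 (SE; limma adjusted p = 0.654) rests on that library and was -0.06 without it. Without MS replicate 1 it was 8.44, past the thresholds. The ALDOA ends had 440 and 78.6 in LW and 466 and 536 in MS, led by ATP2A1 RNA in LW replicate 1 (372), MS replicate 1 (337) and MS replicate 2 (372). The ATP2A1 interval lies 288 kb from ALDOA, and it is the gene whose anchor ALDOA was looped to in LW replicate 1. In LW replicate 2 the ALDOA ends were led by ASPDH RNA (51.2). The PGK1 ends carried a single RNA, PRMT8, in MS replicate 1 (78.9) and none in the other libraries. Without MS replicate 2, PGK1 passed the thresholds with a log2 fold change of -7.94, and without MS replicate 1 it was at 0.00.

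A small group of RNAs from elsewhere in the genome recurred on the ends of 3 or more of the genes. Among them were ASPDH, CMTM4, TTN, the spliceosomal RNA U4, the unnamed transcripts ENSSSCG00000044834, ENSSSCG00000048037 and ENSSSCG00000048856, and Tx.436. At any gene their signal was at most 236, far below that of the own RNAs where these were listed. TTN RNA, from the gene of the giant sarcomere protein titin, was on 2 and 3 of the 10 genes in LW and 5 and 4 in MS, while it was on 12.3% and 12.0% of all genes in LW and 22.4% and 18.6% in MS.

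Other RNAs of the group were on the genes mainly in a single breed. ASPDH RNA was on 3 and 4 of the 10 genes in LW and on none in MS, and on 1.11% and 1.99% of all genes in LW and 0.0603% and 0.142% in MS. CMTM4 RNA was on none in LW and on 2 and 4 in MS, and on 0.124% and 0.259% of all genes in LW and 1.88% and 3.51% in MS. U4 RNA was on 3 and 4 genes in LW, on none in MS replicate 1 and on 1 in MS replicate 2, and on at most 1.75% of all genes. The reads of these RNAs moved with this, with 91598 and 100862 ASPDH reads in LW against 31710 and 37590 in MS, 85091 and 96044 CMTM4 reads against 140969 and 178041, and 112948 and 127776 U4 reads against 38316 and 47399, and their part in the result was not tested.

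**Figure D5:**
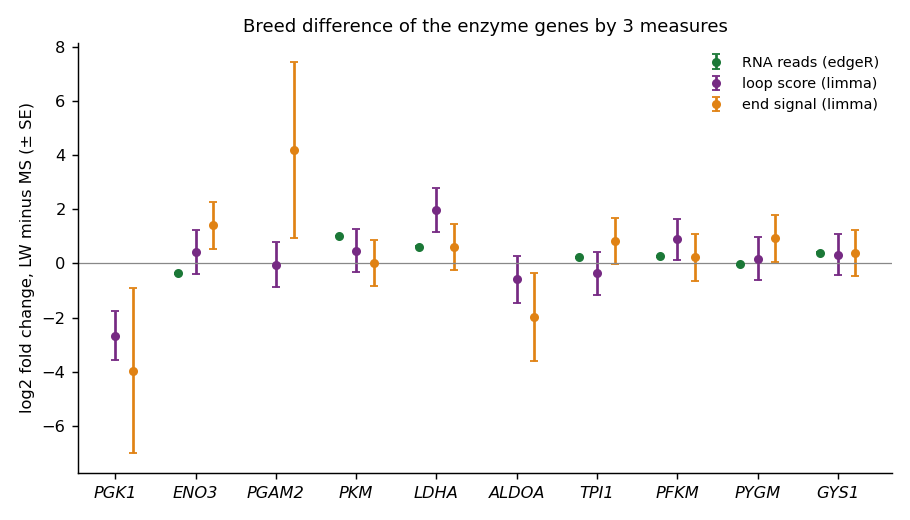
Log2 fold change (LW minus MS) with its SE for each enzyme gene, by chromatin-associated RNA reads (edgeR), loop score (limma) and RNA signal at the gene ends (limma). The read differences have small SEs, which for GYS1 and TPI1 lie below counting error, while the errors of the other measures cross or approach 0 for most genes. ENO3 is below 0 in reads (-0.36) and above 0 in end signal (1.41).

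A further 49 genes of glycolysis, glycogen turnover and their regulation were taken as the surrounding pathway. RNAs of 14 of them were listed in any library and 7 in all 4. All 7 were called by edgeR, beside the 87.0% of all RNAs, with 4 higher in LW and 3 higher in MS. PGM1, the phosphoglucomutase that links glycogen to glycolysis, had 15231 and 16828 reads in LW and 6560 and 7414 in MS (log2 fold change 1.03 ± 0.028 SE, edgeR adjusted p = 9.98e-06). PPP1R3A and PPP1R3B, which bring a phosphatase to glycogen, had log2 fold changes of 0.73 and 0.83 and PHKG1, a phosphorylase kinase subunit, of 0.24.

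GAPDH RNA was higher in MS, with 7687 and 8496 reads in LW and 11945 and 14457 in MS (log2 fold change -0.87 ± 0.016 SE, edgeR adjusted p = 3.36e-06). GPD1, which diverts triose phosphate to glycerol phosphate, and PDK4, the kinase that restrains pyruvate dehydrogenase, were also higher in MS with -0.22 and -0.10. GPI, the isomerase between glucose phosphate and fructose phosphate, had 14163 and 15853 reads in LW and 10800 in MS replicate 2 and was not listed in MS replicate 1.

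Of the 43 pathway genes with a loop, 1 passed the study's thresholds, beside 5.33% of all genes in either direction. It was GPI, with loop scores of 28.4 and 39.6 in LW against 0 and 6.18 in MS (log2 fold change 3.33 ± 1.17 SE, limma adjusted p = 0.819). In end signal 9 of 48 pathway genes passed, beside 15.7% of all genes in either direction, so the count is near the background. ENO1, FBP1 and FBP2 were higher in LW, and GSK3A, GSK3B, PFKFB2, PGAM1, PHKA1 and PPP1R3C were higher in MS. The largest of these differences followed the listing of the gene's own RNA. FBP2, the muscle fructose bisphosphatase, had 18744 and 20168 in LW, where its RNA was listed, and 3.82 and 2.61 in MS, where it was not, and PPP1R3C had 29531 and 44664 in MS, where its RNA was listed, and at most 0.548 in LW. In 6 of the 9 (FBP1, GSK3A, GSK3B, PFKFB2, PGAM1 and PHKA1) the own RNA was not listed in any library, and the higher breed had between 8.93 and 2946. The median log2 fold change in end signal was -0.94 for the pathway genes, 0.50 for the 10 enzyme genes and -0.07 over all genes.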

How the data were processed

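Longissimus muscle of LW and MS piglets gave 4 BL-HiChIP and 4 GRID-seq libraries, grouped by breed and replicate from the labels. For BL-HiChIP the authors used BWA-MEM and the pig build Sscrofa11.1, formed contacts with Pairtools and called loops per library with FitHiChIP on 5-kb anchors. The deposited value of a loop was read as an adjusted p-value (FDR), since all lie under 0.01. For GRID-seq the authors mapped both read ends with Bowtie2 (2.2.5, with SAMtools 1.9, in the submitters' processing notes) and corrected for background. In the deposited lists, the whole number that each RNA carries was taken for its count of RNA reads. The deposited value of a 1-kb DNA bin was taken for a signal after background correction. The lists carry no column names, so these readings rest on the values.

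Gene spans were those of RefSeq on Sscrofa11.1, without strand. PKM RNA was listed by its Ensembl identifier and matched through a table of names. Pairs of RNA and bin listed more than once were summed. Loop scores (window 1 kb) and end signals (window 5 kb) were quantile-normalized and compared with limma 3.58.1 on the log2(value + 1) scale, which understates changes of low values. The counts of RNA reads were compared with edgeR 4.0.16 (TMM) over RNAs listed in all 4 libraries, with SEs taken from the log2 fold change and its F value. Such an SE can lie below counting error, as for GYS1 and TPI1. DESeq2 1.42.0 in R 4.3.3 was an alternative. Adjusted p-values are Benjamini-Hochberg over all features. The limma and edgeR tests were also run on simulated data with independent libraries, and the outcome is not reported here. Tables and figures used Python 3.11.15, pandas 2.3.3, numpy 2.4.6 and matplotlib 3.10.9.

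The plan took an RNA missing from a list as lying under the smallest listed number of reads, which the lists contradict. The enzyme genes, the pathway list and the tests were chosen with earlier results of these data known. Named genes were the 10 enzymes, pathway genes past a threshold, genes at far anchors of loops called in all 4 libraries, RNAs on the ends of 3 or more enzymes, and the leading RNA at each gene's ends, and others are said to be picked later. Some items that this rule names are not reported here. Intervals and SEs cover the spread between libraries, and depth is given as loops and RNA reads per library. Contact counts, gene expression and sequences were not used here.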

Additional observations from a re-analysis of the deposited data

How the results depend on the processing

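The loop calls depended on most settings. Against 436 genes called higher in LW and 386 in MS, the counts were 100 and 146 with DESeq2 on the rounded score, 178 and 205 for genes with a loop in at least 3 libraries, 78 and 68 for the number of loops (2 genes with an adjusted p under 0.05) and 22 and 35 with a pseudocount of 10. They were 862 for LW without normalization, 718 for LW after scaling to equal totals, and 957 for MS with a pseudocount of 0.1. With all 28210 genes entered, 64 genes had an adjusted p under 0.05. Leaving out each library in turn gave 372 to 676 higher in LW, 451 to 925 higher in MS and 0 to 1 genes past the adjusted threshold. A window around the transcription start alone was not run, since the gene table gives no strand.

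In end signal, against 1772 and 1951, the counts were 847 and 725 for genes with signal in at least 3 libraries, 1018 and 1069 with a pseudocount of 10 (369 genes with an adjusted p under 0.05), and 1179 for LW without the 3 RNAs in most trans bins. Leaving out each library gave 1336 to 3298 higher in LW, 1521 to 3113 higher in MS and 0 to 2676 genes past the adjusted threshold. Without the RNAs that overlap the gene, the GYS1 end signal had a log2 fold change of 3.63, past the thresholds.

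The loops of the enzyme genes, 87 in LW and 80 in MS, became 19 and 20 when both libraries of a breed had to call them, 120 and 110 with a window of 5 kb and 59 and 57 at an FDR of at most 0.001. The median local share of the enzyme RNAs, 97.8% in LW and 98.9% in MS, became 100% in MS within 50 kb, and 49.7% and 67.5% by number of bins.

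Directions turned only for genes that were not called. In loop score PGAM2 (-0.04) became 0.092 with DESeq2, 0.31 without normalization, 0.39 by number of loops and 0.027 after scaling to equal totals, ALDOA (-0.58) became 0.03 with a window of 5 kb, and by number of loops PFKM (0.90) became -0.31, PYGM (0.18) -0.15 and GYS1 (0.32) -0.17. Leaving out each library gave -0.65 to 0.57 for PGAM2, -1.39 to 0.23 for ALDOA, -0.014 to 0.86 for ENO3, -0.87 to 0.14 for TPI1 and -0.20 to 0.56 for PYGM. In end signal PKM (0.01) became -0.016 for genes with signal in at least 3 libraries, -0.21 by number of pairs, -0.001 after scaling to equal totals, -0.044 with a window of 10 kb and -0.54 without overlapping RNAs. Without overlapping RNAs PGAM2 became -5.27, LDHA -3.70, TPI1 -2.63 and PFKM -0.63, as their own RNA was then left out, and by number of pairs PGAM2 became -0.36 and LDHA -0.51. Leaving out each library gave -0.10 to 0.12 for PKM and -0.062 to 8.44 for PGAM2. In reads PYGM (-0.04) became 0.077 with library totals alone. The causes were not tested otherwise.

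No label says that libraries sharing a replicate number share an animal or a batch. Deviations of libraries sharing a number correlated with r = 0.354 over genes for loop score, -0.00641 for end signal and 0.939 for reads, from 2 pairs. With the replicate block, the calls were 696 and 593 in loop score, 1181 and 1388 in end signal and 139 and 138 in reads, and the LDHA and PGK1 loop calls stayed past the study's thresholds.

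The 2 libraries per breed limit every comparison, and loop lists without contact counts give no depth per loop.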
